A study of Mus musculus with 10 samples.

Results

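The genes described here make or remove superoxide and hydrogen peroxide. They are the cytosolic, mitochondrial and extracellular superoxide dismutases Sod1, Sod2 and Sod3, catalase (Cat), the NADPH oxidase catalytic subunits Cybb, Nox1, Nox4 and Duox2, and the oxidase partners Cyba and Ncf1. They were chosen by name, and all 10 were found among the 55359 genes of the deposited table through their mouse Ensembl identifiers. All 10 also passed the filter of a mean of at least 1 normalized count that left 24560 genes for testing.

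Expression was measured by RNA sequencing of 10 orthotopic pancreatic tumors grown from KPC K8484 cells, a murine line with a Trp53 R172H allele and Pdx1-Cre, in which Cre is driven by a pancreatic promoter. All hosts were immunocompetent mice of the strain C57BL/6 (C57BL/6 J in the study's methods), 10 weeks of age when the luciferase-expressing cells were injected into the tail of the pancreas, with males and females in equal numbers by the study's methods. The 5 CTRL mice drank regular water and were normoglycemic, and the 5 D30 mice drank 30% dextrose in water and were hyperglycemic. All tumors come from 1 cell line, and the deposited columns (N1, N2, N4, N5 and N6 for CTRL, T1, T2, T4, T5 and T7 for D30) could not be matched to single animals, so that the N columns were read as normoglycemic by their letter and the T columns as the remaining group. The sample titles call the tumors PDX, while the source is the mouse line.

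The tumors held 29192261 to 42122304 reads each, and between 20482 and 25912 genes had a read. Column T4 held 841 reads of 4 Y-linked genes and the other 9 columns held 0. By these reads only T4 showed a male host, so the equal numbers of males and females in the methods are not seen here. The sex of each host is not given in the sources used here. T4 also had the highest summed level of 12 macrophage markers and the lowest sum of 6 fibroblast markers, and T5 had the highest sum of 5 erythroid markers and the fewest genes with a read. Of 6 markers of tumor epithelium, 5 had a read in every tumor. The sum of the 6 was 193324 to 307923 normalized counts in CTRL and 312245 to 423461 in D30, with 5 higher and 1 lower in D30 by fitted sign. Because the samples are bulk tumors, fewer cells of a type and less RNA per cell cannot be told apart.

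Superoxide arises when an electron is passed to oxygen, either as a by-product of respiration or by design, by NADPH oxidases. In phagocytes, Cybb forms the membrane flavocytochrome with Cyba and is switched on by cytosolic factors such as Ncf1, whereas Nox4 also needs Cyba but is constitutively active, and Duox2 carries a peroxidase-like domain and works at epithelial surfaces. Dismutases convert superoxide to hydrogen peroxide, using copper and zinc (Sod1, Sod3) or manganese (Sod2), and catalase splits hydrogen peroxide to water and oxygen in peroxisomes.

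The promoters of Sod1, Cat and Nox4 are given because these were the members with the smallest p-values and they differed in opposite directions. Each spans 250 bases before to 50 after the RefSeq start on GRCm38.p6, which is not the GRCm39 build named in the submitters' processing notes. Sod1 lies at chr16:90220512-90220811 on the plus strand, Cat at chr2:103485104-103485403 on the minus strand and Nox4 at chr7:87246399-87246698 on the plus strand, each written 5′ to 3′ along its gene. Capitals mark a match to 1 of 6 motifs, searched on both strands.
Sod1: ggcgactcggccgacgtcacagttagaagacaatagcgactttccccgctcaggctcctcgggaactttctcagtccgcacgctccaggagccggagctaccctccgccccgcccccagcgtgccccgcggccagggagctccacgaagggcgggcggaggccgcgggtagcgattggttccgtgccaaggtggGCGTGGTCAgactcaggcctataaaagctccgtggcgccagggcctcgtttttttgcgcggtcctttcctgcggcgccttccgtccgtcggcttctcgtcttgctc
Cat: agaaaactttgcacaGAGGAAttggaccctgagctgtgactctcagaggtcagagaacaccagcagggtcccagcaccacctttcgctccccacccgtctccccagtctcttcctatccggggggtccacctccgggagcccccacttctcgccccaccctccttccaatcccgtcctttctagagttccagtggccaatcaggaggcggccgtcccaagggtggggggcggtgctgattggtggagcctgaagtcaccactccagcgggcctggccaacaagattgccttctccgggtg
Nox4: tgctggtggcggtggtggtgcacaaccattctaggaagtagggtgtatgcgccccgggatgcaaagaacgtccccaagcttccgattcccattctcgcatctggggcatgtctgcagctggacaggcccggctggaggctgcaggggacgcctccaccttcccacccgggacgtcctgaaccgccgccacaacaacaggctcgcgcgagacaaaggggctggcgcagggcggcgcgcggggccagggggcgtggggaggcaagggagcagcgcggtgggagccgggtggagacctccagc
In Sod1 the capitals are a match on the opposite strand to TGACNNNGC, the core of the antioxidant response element, which 12.4% of 32851 RefSeq promoters of this length held. In Cat they are GAGGAA, the core recognized by PU.1, held by 28.3%. The Nox4 window held none of the 6 motifs. Promoters were given for 9 members, and Sod3 was named only. TGACNNNGC was found in 1 of the 9, TGANTCA (AP-1, 7.81% of all promoters) in 1, the kappa B motif (4.79%) in 2 and GAGGAA in 4. Neither ACGTG, the core of the hypoxia response element (19.6%), nor the carbohydrate response element (0.365%) was found in any of the 9. These matches are descriptions of letters and not of bound sites.

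Whether D30 water changed these genes was asked for each with limma's moderated test on log2(normalized count + 1), with Benjamini-Hochberg adjustment over all 24560 genes. None of the 10 members passed an adjusted p of 0.05 (0 of 10), where 2.76% of all tested genes did. At an unadjusted p under 0.05 there were 3, namely Sod1, Cat and Nox4, where 17.3% of all tested genes were under this value. The number called was 1 of 10 with DESeq2 on the reads recovered from the table (Sod1, 8.52% of all genes called) and 0 of the 8 members that passed edgeR's filter (4.13% of all genes called). With library-size scaling 0 of 10 were called (3.51% of all genes). By fitted sign 3 members were higher (45.3% of all tested genes were) and 7 lower in D30, with a median log2 fold change of −0.52 beside −0.06 for all tested genes. The study chose Sod1 and Cat for its account of redox genes on these same tumors, so their direction is not independent evidence.

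**Figure D1:**
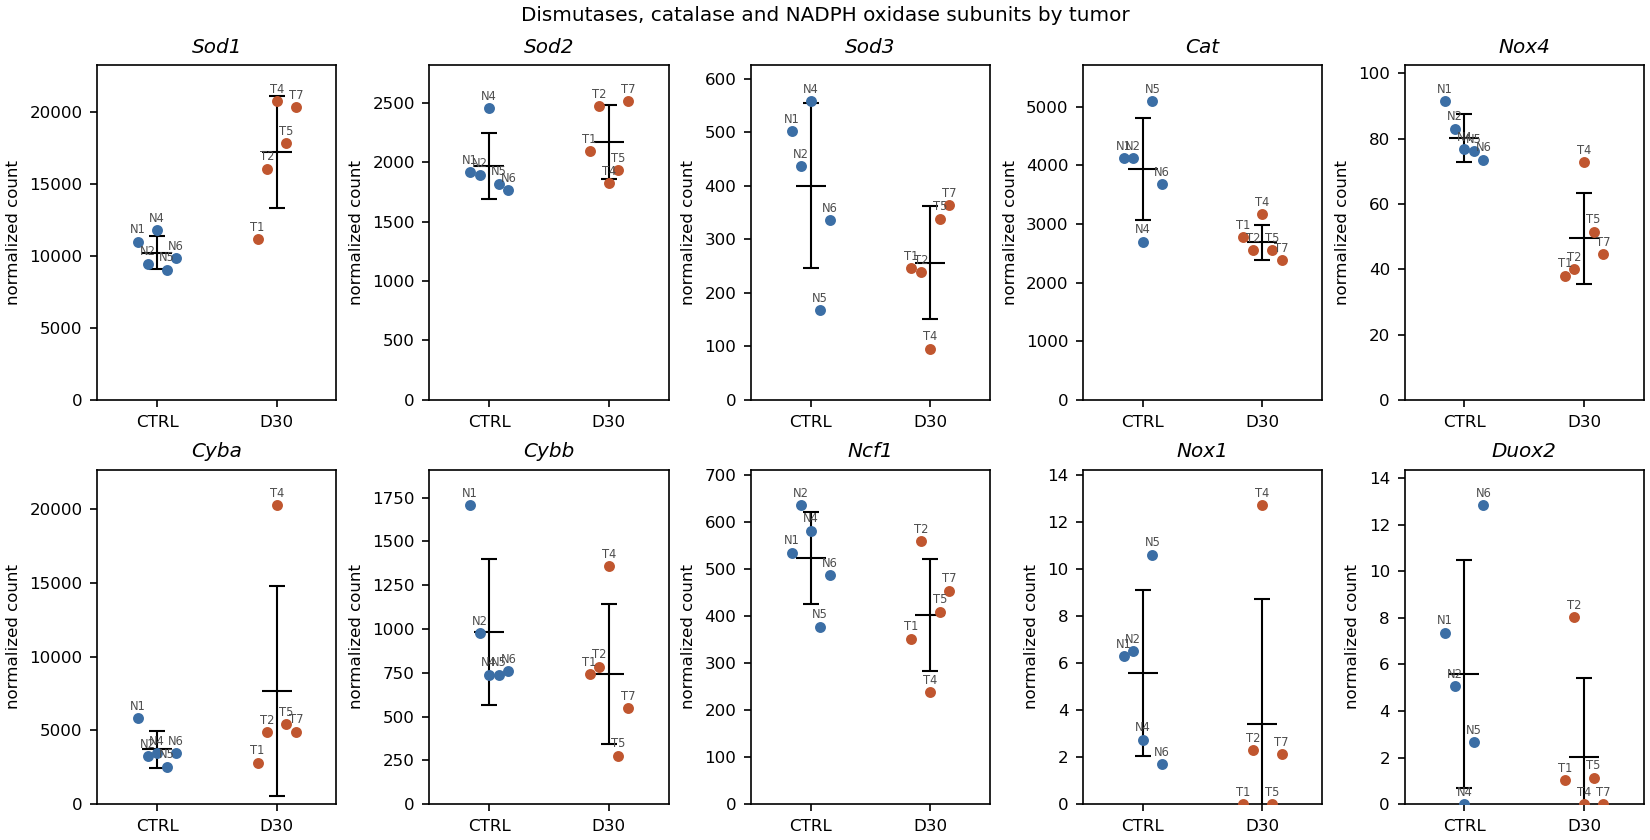
Normalized count (linear axes from 0) of the 10 members in each of the 5 CTRL (blue) and 5 D30 (orange) tumors, with horizontal lines at the mean and bars of 1 SD. Sod1 was above the CTRL range in 4 of 5 D30 tumors, Nox4 was below it in 5 of 5, and the D30 mean of Cyba was set largely by T4.

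Among the scavengers, Sod1 (ENSMUSG00000022982, chromosome 16), the copper and zinc dismutase of the cytosol, stood apart most. The CTRL tumors N1, N2, N4, N5 and N6 had 10989, 9456, 11779.6, 9050.1 and 9838 normalized counts. The D30 tumors T1, T2, T4, T5 and T7 had 11146.5, 16051, 20736, 17829.9 and 20327. Thus 4 of 5 D30 tumors lay above every CTRL tumor, while T1 lay within the CTRL range. The means were 10223 ± 1132 in CTRL and 17218 ± 3893 in D30 (SD, n = 5 each), a log2 fold change of 0.72 ± 0.20 (SE). The exact permutation test gave p = 0.0159 (two-sided, smallest possible 0.00794), and limma's adjusted p was 0.0767. The adjusted p was 0.0104 with DESeq2, 0.0542 with edgeR, 0.0296 without T1 (2.39% of all genes called) and 0.0487 without T4 (6.43% of all genes called).

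Sod2 (ENSMUSG00000006818, chromosome 17), the manganese dismutase of mitochondria, had 1919, 1888, 2454, 1820.1 and 1766 normalized counts in the CTRL tumors. In the D30 tumors it had 2095, 2471, 1826, 1931 and 2514. The ranges overlapped almost throughout, and the log2 fold change of 0.14 ± 0.17 (SE, adjusted p = 0.735 by limma) became −0.09 when the reads were scaled to library size instead. It was 0.08 to 0.22 with 1 tumor left out.

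Sod3 (ENSMUSG00000072941, chromosome 5), the secreted dismutase that binds the extracellular matrix, had 502, 437, 558, 168 and 335 normalized counts in CTRL. The D30 tumors had 246, 238, 96.0, 339 and 363. T4, the D30 tumor with the lowest fibroblast marker sum (11306 normalized counts, against 32035 to 72541 in the other D30 tumors), was also the lowest for Sod3, and the part of fibroblast content in this value was not tested. The log2 fold change was −0.66 ± 0.40 (SE, adjusted p = 0.432 by limma), with groups that overlapped. It was −0.34 without T4 and −0.94 without N5.

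Cat (ENSMUSG00000027187, chromosome 2), which encodes catalase, had 4119.7, 4126, 2696, 5096 and 3682 normalized counts in the CTRL tumors. In the D30 tumors it had 2774, 2549.8, 3169, 2556 and 2386. All D30 tumors were below 4 of the CTRL tumors, and only N4 lay among them. The means were 3944 ± 868 and 2687 ± 303 (SD, n = 5 each), and the log2 fold change was −0.53 ± 0.19 (SE). The exact permutation p was 0.0238 and limma's adjusted p was 0.170. Red cells are rich in catalase. The sum of 5 erythroid markers was 187883 normalized counts in T5 and 4124 to 12386 in the other tumors. Cat in T5 lay within the range of the other D30 tumors, and 5 of 5 erythroid markers were higher in D30 by fitted sign. Summed hepatocyte markers were highest in N5 and, among CTRL, lowest in N4, as Cat was. They were lowest of all in T4, which had the highest D30 level of Cat. By fitted sign 5 of 5 hepatocyte markers were lower in D30. Limma called 2 of them, where 1.36% of all tested genes were called in that direction. The part of either cell type in the Cat values was not tested.

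The balance of the scavengers was described from levels per kilobase of the principal transcript. Sod1 made up 97.0% to 97.5% of the summed dismutase level per kilobase in CTRL and 97.6% to 99.0% in D30. These ranges did not overlap, but the gap was narrow (97.54% in N5 against 97.62% in T1). How often such shares separate for other genes was not computed. Sod2 made up 1.86% to 2.21% and 0.953% to 2.01%, respectively. The ratio of Sod1 to Cat per kilobase ran from 7.24 to 17.8 in CTRL and from 16.4 to 34.7 in D30, with only T1 inside the CTRL range. The copper chaperone Ccs, which loads copper into Sod1, kept a narrower ratio, with Sod1 over Ccs per kilobase at 10.8 to 14.8 in CTRL and 12.3 to 17.7 in D30. Divided by the length of all annotated exons, the Sod1 share was 88.3% to 90.9% in CTRL and 91.1% to 96.2% in D30.

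Among the superoxide sources, Nox4 (ENSMUSG00000030562, chromosome 7), the constitutive oxidase that releases mainly hydrogen peroxide, was the only member whose groups did not overlap. This is 1 of 10 members, where 6.19% of all tested genes did not overlap and 3.32% did so with D30 lower. No member was without overlap and higher in D30 (0 of 10, against 2.87% of all tested genes). The CTRL tumors had 91.5, 83.1, 76.7, 76.1 and 73.6 normalized counts. The D30 tumors had 38.0, 40.1, 72.9, 51.5 and 44.7. The separation was narrow, since T4 lay just below N6, and the other 4 D30 tumors were lower. Means were 80.2 ± 7.23 and 49.5 ± 14.1 (SD, n = 5 each), with a log2 fold change of −0.72 ± 0.29 (SE). The exact permutation p was 0.00794, the smallest that 5 against 5 tumors can give, but limma's adjusted p was 0.223. It was 0.0802 without T4 (log2 fold change −0.87) and 0.0294 without T4 and T5, where 9.97% of all genes were called. Nox4 is well expressed in fibroblasts and vessels, and 6 of 6 fibroblast markers were lower in D30 by fitted sign, with a median log2 fold change of −0.91 and 0 called by limma (4 at an unadjusted p under 0.05, 0 called by edgeR and 1 by DESeq2). Of 6 endothelial markers, 5 were lower, with a median of −0.91 and 1 called by limma, and their sum was 10874 to 18120 normalized counts in CTRL and 5399 to 9713 in D30, without overlap. T4 had the lowest fibroblast and endothelial sums and the highest D30 level of Nox4. The part of either cell type in the Nox4 difference was not tested.

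Cyba (ENSMUSG00000006519, chromosome 8), the small membrane partner of Cybb, Nox1 and Nox4, had 5845, 3255, 3438, 2535 and 3449.9 normalized counts in CTRL. In D30 it had 2809, 4877, 20249, 5422 and 4920.3. The value of T4 was far above all others and N1 was above 4 of 5 D30 tumors, so the groups overlapped. The log2 fold change was 0.74 ± 0.42 (SE, adjusted p = 0.402 by limma) and 0.30 without T4.

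Cybb (ENSMUSG00000015340, chromosome X), the catalytic subunit of the phagocyte oxidase, had 1705, 975, 739, 738 and 759 normalized counts in CTRL. The D30 tumors had 740.3, 785, 1359, 277 and 549.7. T4 was the highest and T5 the lowest D30 tumor for both Cybb and the macrophage markers. The log2 fold change was −0.50 ± 0.38 (SE, adjusted p = 0.534 by limma), and the ranges overlapped. It was −0.19 without T5, −0.28 without N1 and −0.77 without T4.

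Ncf1 (ENSMUSG00000015950, chromosome 5), the cytosolic organizer that assembles the active phagocyte enzyme, had 535, 636, 582, 378 and 488 normalized counts in CTRL. The D30 tumors had 353, 560.1, 238, 409.8 and 455. Unlike Cyba and Cybb, its lowest value was in T4. The log2 fold change was −0.41 ± 0.25 (SE, adjusted p = 0.436 by limma), with overlapping groups, and −0.24 without T4. Its exons overlap those of Gtf2ird2 on the opposite strand, and the strand setting of the counting is not given in the sources used here.

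Nox1 and Duox2, both oxidases of epithelia such as colon and thyroid, were barely read. Nox1 (ENSMUSG00000031257, chromosome X) had 6, 9, 3, 12 and 2 reads in CTRL and 0, 2, 11, 0 and 2 in D30. Duox2 (ENSMUSG00000068452, chromosome 2) had 7, 7, 0, 3 and 15 reads in CTRL and 1, 7, 0, 1 and 0 in D30. No difference was detectable at this depth for either gene (adjusted p = 0.479 and 0.469 by limma). Their log2 fold changes were −1.10 and −1.21, and ran from −1.69 (without T4) to −0.75 and from −1.77 (without N4) to −0.82 with 1 tumor left out. Exons of Nox1 overlap those of Cstf2 on the opposite strand.

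**Figure D2:**
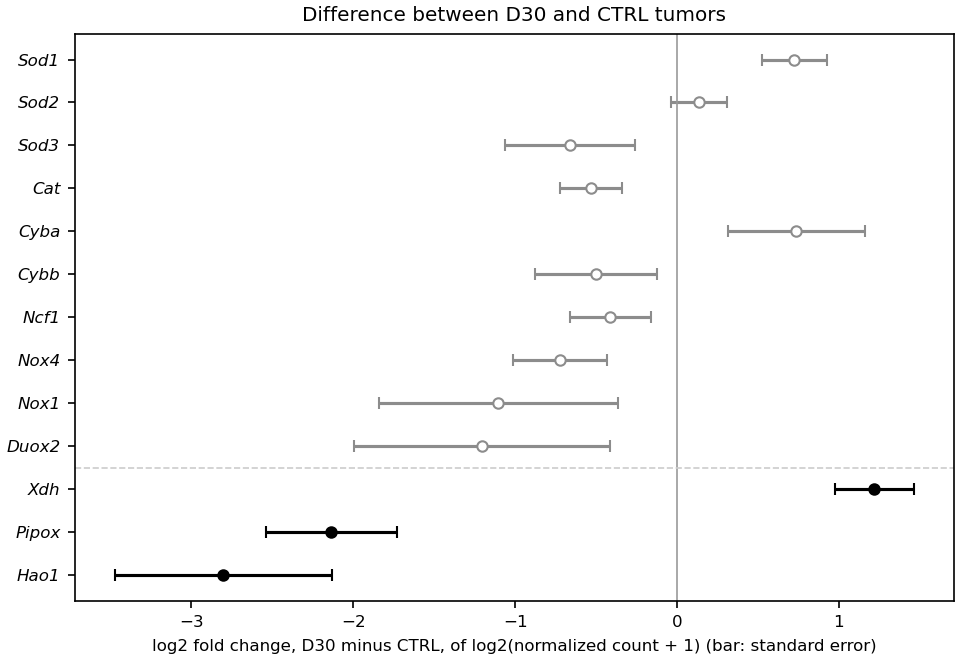
Log2 fold change of D30 minus CTRL on the log2(normalized count + 1) scale with its standard error, for the 10 members and, below the dashed line, for 3 related oxidases. Filled points passed limma's adjusted p of 0.05 and open points did not, and no member is filled.

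Per kilobase of principal transcript, the members kept 1 order in both groups. Mean levels in CTRL were 15948 normalized counts per kilobase for Sod1, 4979 for Cyba, 1509 for Cat, 336 for Sod2, 207 for Cybb, 193 for Ncf1, 107 for Sod3 and 21.4 for Nox4. Nox1 and Duox2 followed at 2.18 and 0.972. In CTRL the tumors of Sod2 and Cybb, Cybb and Ncf1, Ncf1 and Sod3, and Nox1 and Duox2 overlapped, so these neighbours were not separated by the spread between tumors. In D30 those of Sod1 and Cyba overlapped through T4, as did Cybb and Ncf1, Ncf1 and Sod3, and Nox1 and Duox2. The order at the top depends on the length used, since with all annotated exons (3.97 kilobases for Sod1 in place of 0.641) Cyba ranked first and Sod1 came after it in both groups.

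**Figure D3:**
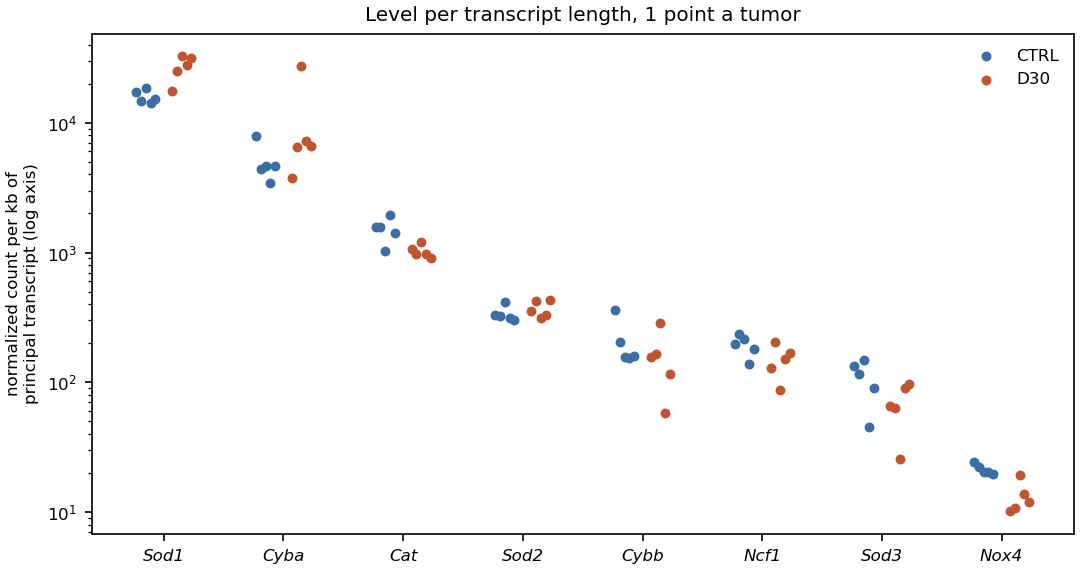
Normalized count per kilobase of principal transcript on a log axis, for 8 members ordered by CTRL level, with 1 point for each of 5 CTRL and 5 D30 tumors. Sod1 and Cyba were the most abundant members, and Nox4 lay below every other gene shown.

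How the phagocyte oxidase genes stood against macrophage content was asked by dividing each by the summed normalized counts of 12 macrophage markers in the same tumor. This sum was 35958 to 70098 in CTRL, and in D30 it was 19220 to 28393 in 4 tumors and 82956 in T4. By fitted sign 10 of the 12 markers were lower in D30, and limma called 1 of them. The log2 ratio of Cyba was −3.58, −4.03, −3.57, −3.83 and −3.59 in CTRL, and −3.02, −2.54, −2.03, −1.83 and −2.48 in D30. All 5 D30 tumors lay above all CTRL tumors, by 1.34 on average (exact permutation p = 0.00794, the smallest possible, and 0.0238 adjusted over the 3 genes tested). Before division the Cyba groups overlapped, and the marker sum was below the CTRL range in 4 D30 tumors. The ratio was formed for these 3 genes only, so the share of all genes that would separate in this way is not known. Without T4 and T5 the difference in the Cyba ratio was 1.04. The p was then 0.0179 by the exact permutation test, the smallest that 5 against 3 tumors can give, and 0.0536 after adjustment, so the loss of the call follows from the number of tumors.

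For Cybb, the catalytic partner, the groups overlapped. Its log2 ratio was −5.66 ± 0.18 in CTRL and −5.56 ± 0.50 in D30 (SD, n = 5 each), a difference of 0.10 (exact permutation p = 0.706, adjusted 0.825). The difference was −0.06 without T1, 0.19 without T4, 0.24 without T5 and 0.41 without T4 and T5 (exact permutation p = 0.0714). For Ncf1 the ratio was −6.50 ± 0.33 and −6.31 ± 1.20 (SD, n = 5 each), a difference of 0.19 (exact permutation p = 0.825). T4, at −8.44, lay below all CTRL tumors and the other 4 D30 tumors above them, and without T4 the difference was 0.72 (exact permutation p = 0.0159, adjusted 0.0238). Cyba is made by many cell types and not by macrophages alone, and the summed level of tumor epithelium markers was higher in every D30 tumor than in any CTRL tumor. Of these 6 markers, 5 were higher and 1 lower (log2 fold change −3.17) in D30 by fitted sign. All 6 had an unadjusted p under 0.05 and 0 were called by limma. Summed neutrophil markers were highest in T5 (18146 normalized counts) and T2 (7977), which had the highest Ncf1 ratios (−5.55 and −5.66). T5 also had the highest Cyba ratio. By contrast N1, with the highest CTRL neutrophil sum (4230), had the lowest CTRL ratio of Ncf1 (−7.03). The part of other cell types, neutrophils and tumor epithelium among them, in these ratios was not tested.

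**Figure D4:**
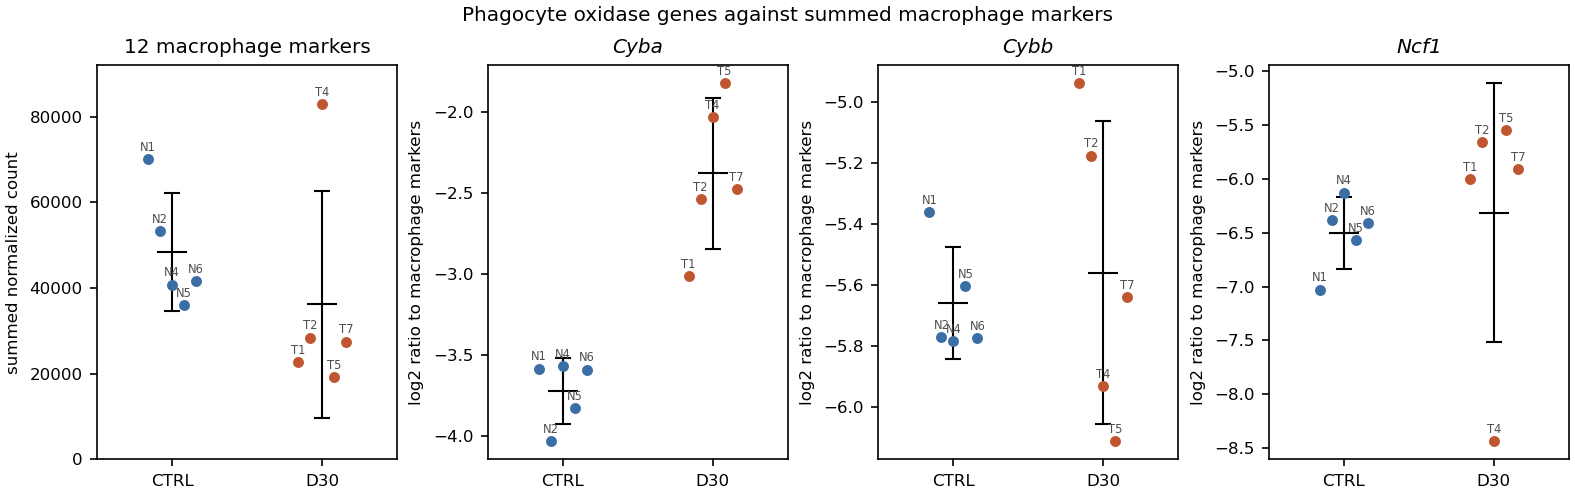
Summed normalized counts of 12 macrophage markers (left, linear axis from 0) and the log2 ratio of Cyba, Cybb and Ncf1 to that sum in each CTRL and D30 tumor, with the mean and 1 SD. The Cyba ratio separated the groups, and those of Cybb and Ncf1 did not.

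The pairing of the subunits in single tumors followed from the same values. Cyba per kilobase exceeded Cybb per kilobase 21.3 to 29.7 times in CTRL. In D30 the ratio was 24.2 in T1, 39.7 in T2, 95.2 in T4, 125 in T5 and 57.2 in T7, so that only T1 lay inside the CTRL range. Cyba over Nox4 per kilobase was 168 to 322 in CTRL and 372 to 1402 in D30, without overlap. Nox4 alone did not overlap either, and the share of other gene pairs without overlap was not computed.

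Likeness was the root mean square difference of log2 levels centred on each gene's mean over the 10 tumors. By this measure Rpl34 (0.125), Rps25 (0.136) and Gm5617 (0.143) were most like Cyba among 17360 genes. T4 was far above all other tumors for Cyba (20249 normalized counts against 2535 to 5845) and for each of these genes. Rpl34 had 70566 in T4 against 7792 to 19904, Rps25 111147 against 13312 to 33596, and Gm5617 570 against 74.4 to 180. How far this likeness rests on T4 was not tested. The genes most like Sod1 were Ndufa6 (0.112), a subunit of respiratory complex I, Psenen (0.119), a subunit of gamma-secretase, and Rpl23a (0.120). Those most like Cat were Xrn2 (0.109), an exoribonuclease, Polr3f (0.111), a subunit of RNA polymerase III, and Mtx3 (0.118). Rpl34, Rps25 and Rpl23a encode ribosomal proteins.

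The other NADPH oxidase subunits, maturation factors and superoxide sources comprised 16 genes, of which Nox3 and Duoxa2 were too low to be tested. Of the 14 tested, 11 were higher and 3 lower in D30 by fitted sign, with a median log2 fold change of 0.12 beside −0.06 for all genes. The test was passed by 1 gene, with D30 higher, where 1.4% of all tested genes were called in that direction. This was Xdh, xanthine dehydrogenase, an enzyme of purine breakdown, whose oxidase form passes electrons to oxygen. Xdh had 554, 728, 672, 495 and 698 normalized counts in CTRL and 1280.1, 1279, 1164, 2665 and 1273 in D30. Every D30 tumor was above every CTRL tumor, and T5 was the highest. Xdh rose by a log2 fold change of 1.22 ± 0.24 (SE, adjusted p = 0.0176 by limma), from 629 ± 99.9 to 1532 ± 635 normalized counts (SD, n = 5 each). It passed in 20 of 21 other settings, and the adjusted p was 0.0586 without N5. Duoxa1, the maturation factor of Duox1, had the next smallest p, at 6 to 11 reads in CTRL and 7 to 29 in D30 (log2 fold change 1.04, adjusted p = 0.279 by limma).

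Of 10 genes listed under copper and manganese supply, 6 were higher and 4 lower, with a median log2 fold change of 0.06. The list also holds Cox17, Mtch2 and Slc25a39, and not every gene on it serves the dismutases. Limma called 0 of the 10, 0 had an unadjusted p under 0.05, and 0 were called by either count test. The smallest p-values belonged to Ccs (log2 fold change 0.40, adjusted p = 0.294) and to Atox1, a copper chaperone of the secretory pathway (0.47, adjusted p = 0.483). In both genes T4 was the highest tumor, and without it the log2 fold changes were 0.27 for Ccs and 0.15 for Atox1.

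Of 15 peroxisomal oxidases and import factors that act beside catalase, 8 were higher and 7 lower, with a median log2 fold change of 0.13. There were 6 with an unadjusted p under 0.05, where 17.3% of all tested genes were, and 2 passed the adjusted threshold, both lower in D30, where 1.36% of all tested genes were called in that direction. Pipox, the peroxisomal oxidase of sarcosine and pipecolic acid, had 594, 544, 375, 856 and 478 normalized counts in CTRL and 86.4, 165, 47.4, 190.0 and 227 in D30. Its groups did not overlap, and it fell by 2.14 ± 0.40 on the log2 scale (SE, adjusted p = 0.0138 by limma), a call kept in 21 of 21 other settings.

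Hao1, the glycolate oxidase of liver peroxisomes, had 419, 232, 54.8, 413 and 245 normalized counts in CTRL and 8.23, 71.0, 18.5, 29.8 and 83.1 in D30. N4 lay among the D30 tumors. Hao1 fell by 2.80 ± 0.67 on the log2 scale (SE, adjusted p = 0.0423 by limma), and the call held in 13 of 21 other settings, with adjusted p-values of up to 0.120. Removing any single one of N1, N2, N5, N6, T1 or T5 lost it. Summed markers of hepatocytes, which express both Pipox and Hao1, were 1077 to 3564 normalized counts in CTRL, highest in N5, and 468 to 1230.3 in D30, lowest in T4. Pipox was also highest in N5 and lowest in T4, whereas Hao1 was highest in N1 and lowest in T1. By fitted sign 5 of 5 hepatocyte markers were lower in D30, with a median log2 fold change of −1.49. Limma called 2 of them, where 1.36% of all tested genes were called in that direction. DESeq2 and edgeR each called 2 as well. The part of liver cells in the Pipox and Hao1 differences was not tested. Pex19, the chaperone of peroxisomal membrane proteins, had 2154 to 2262 normalized counts in CTRL and 2346 to 2794 in D30. Its groups did not overlap, but its log2 fold change of 0.21 ± 0.15 (SE) had an adjusted p of 0.506 by limma and was −0.02 with library-size scaling.

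**Figure D5:**
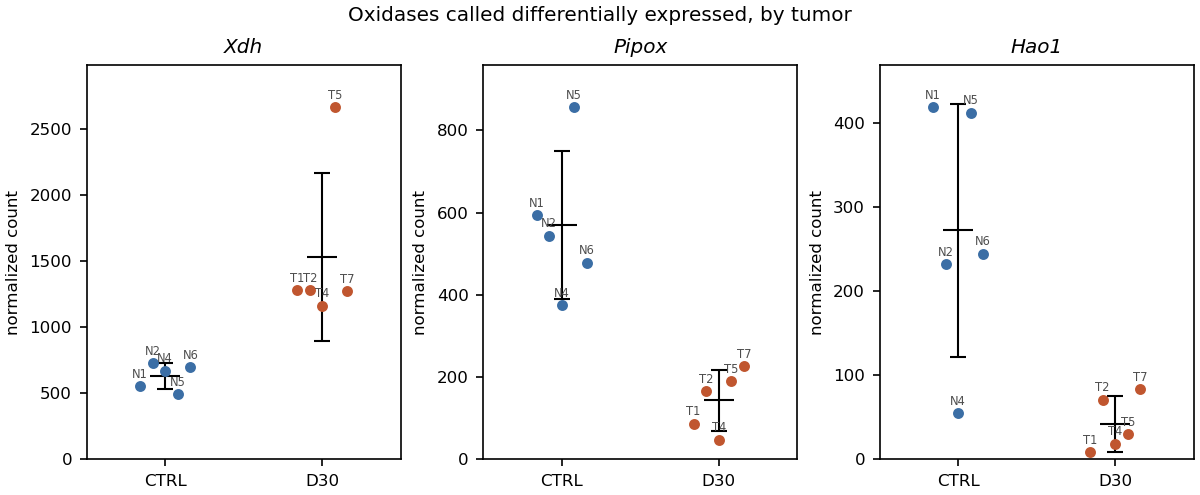
Normalized count (linear axes from 0) of the 3 related oxidases that passed limma's test, in each CTRL and D30 tumor, with the mean and 1 SD. Xdh was higher in all 5 D30 tumors, Pipox was lower in all 5, and Hao1 overlapped between groups through N4.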

How the data were processed

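RNA was sequenced from 10 tumors as strand-specific libraries with 150-bp paired reads. Per the labels and the study's methods the reads were trimmed with Trim Galore and aligned with STAR 2.7.0e, and RSEM and DESeq2 are also named. The submitters' notes name GRCm39, the methods name hg38 and the table lists mouse Ensembl identifiers. The annotation release and counting settings are not given in the sources used here. The deposited values are a signal of the kind DESeq2 writes, read counts over a tumor's size factor, from which whole reads (within 0.05 of a whole number) were recovered for 100% of values.

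The members and gene lists were chosen with earlier results of these data known. Symbols came from GENCODE M21 (52083 identifiers, 94.1%). Genes with a mean of at least 1 were tested on log2(normalized count + 1) with limma 3.58.1 (mean-variance trend, R 4.3.3), a script checked on simulated data. Log2 fold changes of low genes depend on the added count, at −1.46 with 0.5 and −0.44 with 5 for Nox1. Beside DESeq2 they went either way, at −1.10 against −0.71 for Nox1 and −1.21 against −1.46 for Duox2. A call was an adjusted p under 0.05 over all genes. edgeR 4.0.16 and DESeq2 1.42.0 on recovered reads, library-size scaling, other filters and pseudocounts, and removal of tumors were alternatives. Exact permutation tests were two-sided. Named genes were the members, list genes that were called or did not overlap, the 2 smallest p-values of each list and the 3 most alike genes. Sequences came from RefSeq on GRCm38.p6.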

Additional observations from a re-analysis of the deposited data

Results flagged for a closer look

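In 6 of 20 groups of 5 tumors, 1 for each member and condition, 1 tumor lay far from the others by Dixon's criterion (a gap to the nearest tumor above 0.71 of the group's range), which chance alone marks in about 1 in 20 groups. N4 had 2454 normalized counts of Sod2, against 1766 to 1919 in the other CTRL tumors. N1 had 5845 of Cyba, against 2535 to 3449.9, and 1705 of Cybb, against 738 to 975, and N1 also had the highest CTRL macrophage marker sum. T4 had 20249 of Cyba, against 2809 to 5422 in the other D30 tumors, and 12.7 of Nox1, against 0 to 2.29. T2 had 8.02 of Duox2, against 0 to 1.14. The Nox1 and Duox2 values rest on 11 and 7 reads.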

How the results depend on the processing

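Across all genes, limma's 678 calls (344 higher and 334 lower in D30) became 1858 with DESeq2, 707 with edgeR (457 higher, 250 lower), 864 with library-size scaling (240 higher, 624 lower), 2418 without T4 and T5, and 279 to 1573 when single tumors were left out, with the highest number without T4 and the lowest without N2. The median log2 fold change of all genes was −0.06, and −0.27 with library-size scaling or 0.04 with edgeR. Among the members, 1 was called with DESeq2 (Sod1), 1 without T4 and T5 (Nox4) and 0 to 1 when single tumors were left out (Sod1, without T1 or without T4). Library-size scaling turned Sod2 to −0.087 and Pex19 to −0.018. The Cyba ratio to macrophage markers was 1.04 without T4 and T5 (adjusted p = 0.0536, from the smallest p that 5 against 3 tumors can give). With 1 tumor left out, the Cybb ratio ran from −0.056 (without T1) to 0.24 (without T5) and the Ncf1 ratio from 0.00019 (without T5) to 0.72 (without T4). Without T4 and T5 they were 0.41 and 0.64. Sod1, Cat and Nox4 kept their direction in all 21 alternatives, with log2 fold changes of 0.50 to 0.87, −0.75 to −0.43 and −0.95 to −0.64. No paired analysis was possible because the numbers in the table's columns run past the replicate numbers of the labels and could not be matched to them. Depth limits Nox1 and Duox2, with at most 15 reads in any tumor.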

Other observations

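Markers of other cell types were also read in these bulk tumors. Summed T cell markers were 261 to 527 normalized counts in CTRL and 160 to 255 in D30, without overlap, with 6 of 6 lower by fitted sign and 0 called by limma (2 at an unadjusted p under 0.05, 0 called by edgeR and 1 by DESeq2). Summed neutrophil markers overlapped, at 1059 to 4230.2 in CTRL and 1137 to 18146 in D30, with 9 of 10 higher by fitted sign, 0 called by limma (4 at an unadjusted p under 0.05, 1 called by edgeR and 1 by DESeq2) and T5 highest. Acinar markers spanned 270 to 55096 in CTRL and 144 to 5031 in D30, and limma called 3 of 5 islet markers, all lower in D30, where DESeq2 called 4 and edgeR 0. Smooth muscle and pericyte, dendritic cell, B cell, intestinal, gastric and adipocyte sums overlapped between the groups.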
